A study of Mus musculus with 12 samples.

Results

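Adiponectin, leptin, resistin, adipsin and 4 further genes typical of fat cells were followed in mouse muscle RNA, as a gauge of fat within or beside the muscle. The set holds 8 genes, picked by symbol: Adipoq, Lep, Retn, Cfd, Fabp4, Pparg, Car3 and Pck1. Each gene was read from its brightest probe set among those the annotation gives to that gene alone. Cfd, which encodes adipsin (complement factor D), has no probe set under its name in that annotation and was not analysed here. The other 7 genes have 15 probe sets between them, of which 13 passed the filter on low signal, and all 7 genes were among the 11345 tested.

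The arrays came from 12 mice, 3 in each of 4 groups: GPR120 KO mice on high fat diet (HFD), GPR120 KO mice on normal diet (ND), wild-type (WT) mice on HFD and WT mice on ND. GPR120, encoded by Ffar4, is a membrane receptor that senses long-chain fatty acids. Every mouse was 16 weeks old and of a mixed 129/Sv and C57BL/6 background, and every sample is labelled muscle, without naming which one. Neither the length of the feeding nor the way the allele was made is given in the sources used here, and the mouse numbers of the 4 groups do not interleave, so a group cannot be told apart from a cohort. Nothing in the labels says how the tissue was trimmed of fat.

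Fat cells store triglyceride and release hormones, the adipokines, that report on energy stores. Adiponectin and leptin are made almost wholly by adipocytes, and resistin is an adipocyte product in mice although macrophages make it in humans. PPARG is the transcription factor that drives fat cell differentiation, and Fabp4, Adipoq and Pck1 are among its known target genes. Muscle fibres themselves make little of most of these transcripts, while fat cells lie between fibre bundles and around the muscle. Car3 and Fabp4 are exceptions, since carbonic anhydrase III is abundant in slow muscle fibres and Fabp4 is also made by capillary endothelium and macrophages.

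The stretch of 250 bases before the start site is shown for the 3 hormone genes that were measured, because their levels are the main readout of fat here. The sequences are from RefSeq on GRCm38.p6, plus strand, 5′ to 3′, on chr16:23146286-23146535 for Adipoq, chr6:29059971-29060220 for Lep and chr8:3655520-3655769 for Retn. Capitals mark matches, on either strand, to 4 motifs searched. These were the TATA box as TATAAA, the CCAAT box as CCAAT, the C/EBP palindrome as TTGCGCAA, and the direct repeat read by PPARG with its partner RXR, which is AGGTCA given again in the same direction after 1 free base.
Adipoq: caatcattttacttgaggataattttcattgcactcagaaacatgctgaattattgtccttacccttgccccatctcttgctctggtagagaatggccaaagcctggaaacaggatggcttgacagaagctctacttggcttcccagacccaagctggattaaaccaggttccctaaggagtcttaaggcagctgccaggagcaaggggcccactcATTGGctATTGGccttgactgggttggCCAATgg
Lep: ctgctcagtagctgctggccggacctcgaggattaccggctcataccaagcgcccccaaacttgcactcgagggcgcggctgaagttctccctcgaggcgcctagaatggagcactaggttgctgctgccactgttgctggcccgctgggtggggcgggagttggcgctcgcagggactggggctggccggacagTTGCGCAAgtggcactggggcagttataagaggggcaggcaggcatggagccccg
Retn: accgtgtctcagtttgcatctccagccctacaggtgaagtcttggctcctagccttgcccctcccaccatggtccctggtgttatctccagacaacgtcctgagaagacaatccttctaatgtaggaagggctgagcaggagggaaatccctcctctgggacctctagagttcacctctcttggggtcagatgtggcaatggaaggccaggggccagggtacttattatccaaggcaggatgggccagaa
Adipoq held 3 matches to CCAAT, Lep held 1 match to TTGCGCAA and Retn held none of the 4 motifs in this window. Of 32851 promoter windows of the same length, the CCAAT box was in 33.8%, the TATA box in 12.4%, the palindrome in 0.164% and the direct repeat in 0.0335%. The 4 motifs do not contain one another. A match describes letters and is not evidence of binding.

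The arrays were of like brightness, and the fibre markers were among the brightest probe sets. Array medians lay between 3.87 and 4.16 on the log2 scale. Fibre genes such as Tnnt3, fast troponin T (mean 13.97), and Acta1, skeletal actin (13.68), were near the top of the range, while liver markers Alb, Ttr, Apoa1 and G6pc were under the filter at a log2 signal of 3.78. Apoa2, also on the liver list, passed that filter at a mean of 4.01, and Serpina1a had no probe set under its name. RNA integrity was read from the actin and Gapdh control probe sets as 3′ signal minus 5′ signal on the log2 scale, averaged over both genes. This ratio was 0.16 ± 0.13 in KO HFD, 0.07 ± 0.06 in KO ND, 0.18 ± 0.02 in WT HFD and −0.02 ± 0.09 in WT ND (SD, n = 3 each). Its mean was higher on the high fat diet in both genotypes. In WT the diets did not overlap in this ratio, at 0.16 to 0.20 in WT HFD and −0.08 to 0.09 in WT ND. Ratio and diet can therefore hardly be told apart in WT, and a call lost there does not show which of them it followed. Diet results are also given with the ratio as a covariate where that changes a call. With this covariate the diet called 265 genes in KO, 186 in WT and 522 averaged over genotypes, against 515, 687 and 1552 without it. Ffar4 itself, read by 1 probe set, lay at 0.98 to 3.19 in KO HFD, 0.33 to 3.88 in KO ND, 0.56 to 2.40 in WT HFD and −1.39 to 2.26 in WT ND. Those values are near or under the filter in every mouse, and the sources used here do not say if the deletion covers it, so it checks no genotype label. All values are log2 signals of single probe sets, which can be compared between mice but not between genes.

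On the high fat diet, KO muscle read higher for all 3 measured hormones, and the 3 mice did not overlap with the KO mice on normal diet for any of them. Adipoq was 12.26, 12.25 and 11.70 in KO HFD, against 8.95, 10.81 and 11.32 in KO ND. That is a log2 difference of 1.71 ± 0.55 (SE, n = 3 per group, limma adjusted p = 0.0980), about 3.27-fold, with a 95% interval of 0.52 to 2.91. Lep, the satiety hormone leptin, was 8.62, 7.74 and 7.75 in KO HFD, against 5.24, 1.67 and 6.23 in KO ND. Its difference was 3.66 ± 1.19 (limma adjusted p = 0.0995), with an interval of 1.09 to 6.23. Retn, resistin, was 7.59, 7.95 and 7.48 in KO HFD, against 6.11, 6.41 and 7.47 in KO ND, a difference of 1.01 ± 0.36 (limma adjusted p = 0.135). None of the 3 hormones passed the threshold of 0.05 after adjustment over all genes. The KO mice on normal diet spread widely, and mouse 1 among them was the lowest of all 12 for Adipoq and Retn. Without that mouse the difference for Adipoq was 1.01, and without KO ND mouse 2 that for Lep was 2.30. Without KO ND mouse 3 the differences were 2.19 for Adipoq, 4.58 for Lep and 1.41 for Retn, and that of Retn then passed (adjusted p = 0.0450).

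Fabp4, the fatty acid binding protein of adipocytes, was the only member past the threshold in KO muscle. It read 13.45, 13.37 and 13.49 in KO HFD, against 12.65, 13.08 and 12.99 in KO ND, so the groups did not overlap and their difference was small. It rose by 0.53 ± 0.14 (SE, n = 3 per group, limma adjusted p = 0.0493). Of 7 members 1 was called, beside 4.54% of all genes tested, and the groups did not overlap for 4 of 7, beside 26.5% of all genes. The median difference over the 7 was 0.53, against 0.05 over all genes. The Fabp4 call is marginal: in 12 fits that left out 1 mouse each it held only without WT HFD mouse 1 or WT HFD mouse 2, with adjusted p between 0.0135 and 0.175. It was lost when the control ratio entered the fit (0.48, adjusted p = 0.125).

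**Figure D1:**
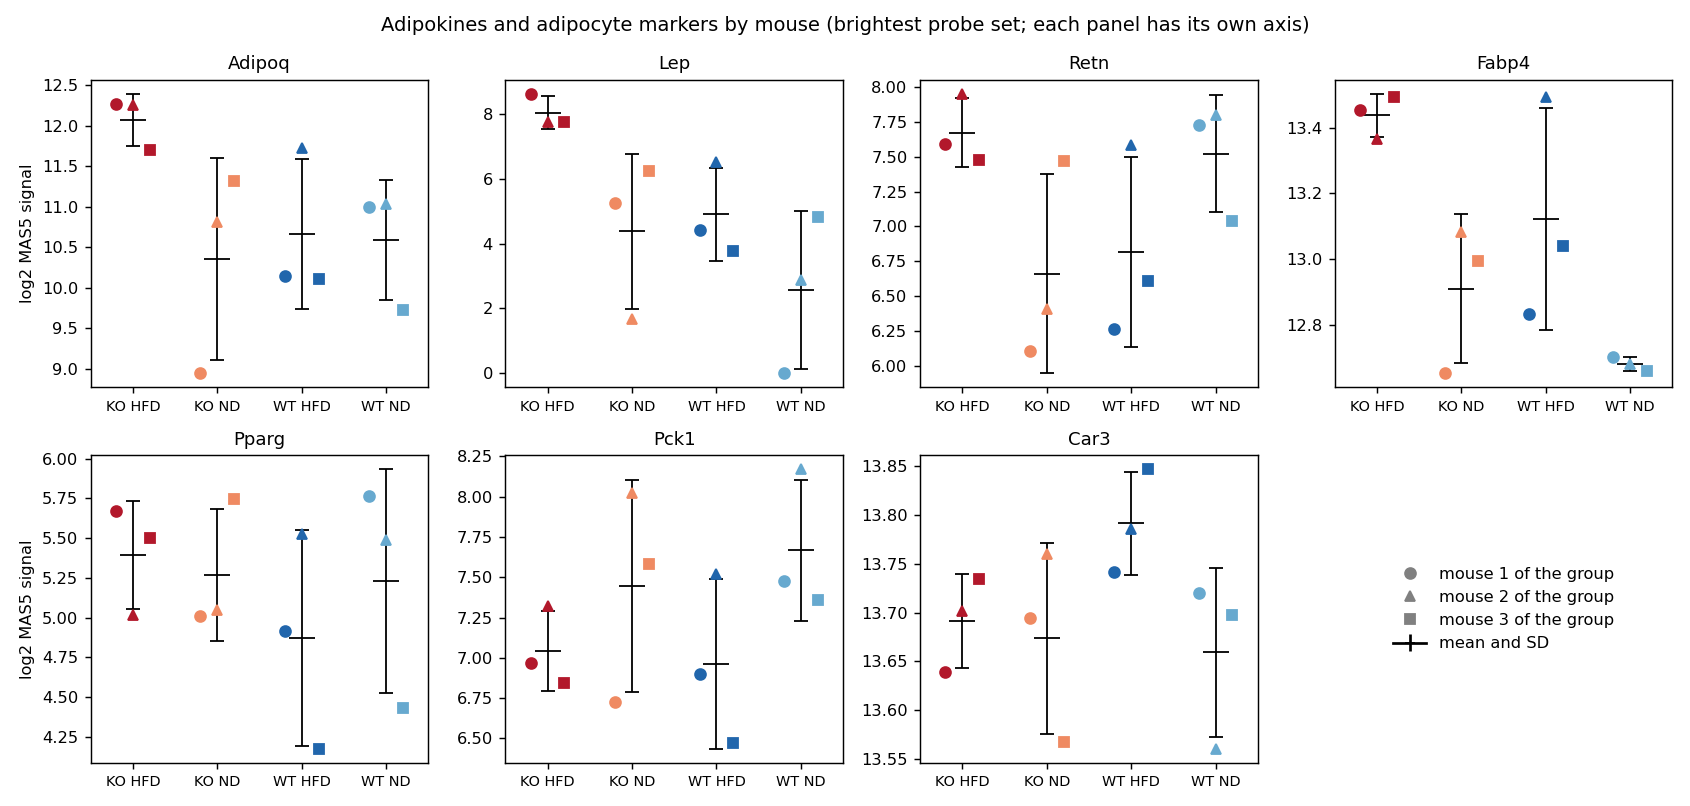
The log2 signal of each member's brightest probe set in every mouse is plotted by group, with the marker shape giving mouse 1, 2 or 3 of the group and the bar giving mean and SD (n = 3). The 3 KO HFD mice lie above the 3 KO ND mice for Adipoq, Lep, Retn and Fabp4, while Pparg, Pck1 and Car3 overlap between those groups.

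The regulator Pparg and the enzymes Pck1 and Car3 overlapped between the diets in KO muscle. Pparg, the master regulator of fat cells, was 5.67, 5.01 and 5.50 in KO HFD, against 5.01, 5.05 and 5.75 in KO ND, and the groups overlapped (0.13 ± 0.40, limma adjusted p = 0.899). Pck1, cytosolic PEP carboxykinase, which fat cells use to make glycerol for triglyceride, was 6.97, 7.32 and 6.84 in KO HFD, against 6.73, 8.02 and 7.58 in KO ND. Its difference was −0.40 ± 0.33 (limma adjusted p = 0.539), with an interval of −1.10 to 0.30 that holds both directions. Car3 was 13.64 to 13.73 in KO HFD, against 13.57 to 13.76 in KO ND, a difference of 0.02 ± 0.07 on a probe set at the 99.98th percentile of all.

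In WT muscle the diets overlapped for all 3 hormones. Adipoq was 10.15, 11.73 and 10.11 in WT HFD, against 11.00, 11.04 and 9.73 in WT ND, a difference of 0.07 ± 0.55 (SE, n = 3 per group, limma adjusted p = 0.958) with an interval of −1.12 to 1.27. The highest WT HFD value is that of mouse 2, and without it the difference was −0.46. Retn read 6.27, 7.58 and 6.61 in WT HFD, against 7.73, 7.80 and 7.04 in WT ND, and its mean was lower on the high fat diet (−0.70 ± 0.36, limma adjusted p = 0.268). Lep was 4.41, 6.52 and 3.78 in WT HFD, against 0.00, 2.88 and 4.82 in WT ND (2.34 ± 1.19, limma adjusted p = 0.265). Without WT ND mouse 1 that difference was 1.05, and without WT ND mouse 3 it was 3.46. Of the 12 Lep values 4 lie under the filter of 3.78, 1 of them in WT HFD, 1 in KO ND and 2 in WT ND, so the lower end of its range is poorly measured.

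Fabp4 read above every WT ND value in all 3 WT mice on the high fat diet, at 12.83, 13.49 and 13.04 in WT HFD, against 12.70, 12.68 and 12.66 in WT ND. The groups did not overlap, and the difference of 0.44 ± 0.14 missed the threshold (limma adjusted p = 0.0803), although it passed without WT HFD mouse 1 (0.59, adjusted p = 0.0364). In the fit without WT HFD mouse 2 it was 0.26. Pparg was 4.92, 5.53 and 4.17 in WT HFD, against 5.76, 5.49 and 4.43 in WT ND (−0.36 ± 0.40, limma adjusted p = 0.644). Pck1 was 6.90, 7.52 and 6.47 in WT HFD, against 7.47, 8.17 and 7.36 in WT ND (−0.70 ± 0.33, limma adjusted p = 0.216). Limma called 0 of 7 members in WT, beside 6.06% of all genes called. At an unadjusted p under 0.05 were 2 of 7, beside 2609 of all 11345 genes. The groups did not overlap for 2 of 7, Fabp4 and Car3, beside 26.7% of all genes.

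Averaged over the genotypes, 2 of 7 members rose with the high fat diet, beside 13.7% of all genes called. Fabp4 rose by 0.49 ± 0.10 (SE, 6 mice per diet, limma adjusted p = 0.00681), and it stayed past the threshold in all 12 fits that left out 1 mouse. The 6 HFD mice read 12.83 to 13.49 with a median of 13.41, against 12.65 to 13.08 with a median of 12.69 in the 6 ND mice. Lep rose by 2.997 ± 0.84 (limma adjusted p = 0.0328), at 3.78 to 8.62 with a median of 7.13 on HFD and 0.00 to 6.23 with a median of 3.85 on ND. Lep passed in 5 of the 12 fits that left out 1 mouse, with adjusted p between 0.0157 and 0.0796. It lost its call without any 1 of the 3 KO HFD mice, KO ND mouse 2, WT HFD mouse 2, or WT ND mouse 1 or 2. With the control ratio in the fit neither gene passed (Fabp4 0.42, adjusted p = 0.123; Lep 2.47, adjusted p = 0.270). Pck1 had a mean difference of −0.55 ± 0.23 (limma adjusted p = 0.130), which passed without KO ND mouse 1 (−0.73, adjusted p = 0.0421).

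The genotypes were then compared on each diet. On the high fat diet Lep was above every WT value in all 3 KO mice, at 7.74 to 8.62 in KO and 3.78 to 6.52 in WT, a difference of 3.14 ± 1.19 (SE, n = 3 per group, limma adjusted p = 0.237). The 3 KO HFD mice also lay above the other 9 mice of the study, whose highest value was 6.52. The share of all genes that do the same was not computed. Adipoq differed by 1.41 ± 0.55 (limma adjusted p = 0.257) and Retn by 0.85 ± 0.36 (limma adjusted p = 0.297), with overlap through WT HFD mouse 2 in both. Fabp4 differed by 0.32 ± 0.14 (limma adjusted p = 0.319), or by 0.50 without that mouse (adjusted p = 0.0411) and by 0.17 without WT HFD mouse 1 (adjusted p = 0.635). Limma called 0 of 7 members, beside 0.732% of all genes called. An unadjusted p under 0.05 was reached by 4 of 7, beside 1681 of all 11345 genes. Groups did not overlap for 2 of 7, Lep higher and Car3 lower in KO, beside 19.4% of all genes.

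The Lep result depends on how low signals are treated. With an offset at the median of all linear signals, which shrinks differences among dim values, its difference between KO and WT on the high fat diet was 2.49 and passed (limma adjusted p = 0.0444), as did its diet difference in KO (2.60, adjusted p = 0.0177) and the genotype difference averaged over diets (1.64, adjusted p = 0.0465). With an offset at the 10th percentile the adjusted p were 0.174, 0.0711 and 0.131.

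On normal diet no member was called between the genotypes, and the direction of the hormones was mixed. Limma called 0 of 7 members, beside 0.414% of all genes, and groups did not overlap for 0 of 7, beside 17.0% of all genes. Only 1 member had an unadjusted p under 0.05, beside 1277 of all 11345 genes. That 1 was Retn, at 6.11, 6.41 and 7.47 in KO ND and 7.73, 7.80 and 7.04 in WT ND (−0.86 ± 0.36, SE, n = 3 per group, limma adjusted p = 0.386). Adipoq differed by −0.23 ± 0.55 (adjusted p = 0.921), or by 0.48 without KO ND mouse 1, and Lep by 1.81 ± 1.19 (adjusted p = 0.619), or by 0.53 without WT ND mouse 1. Averaged over diets, limma called 0 of 7, beside 1.61% of all genes. At an unadjusted p under 0.05 were 2 of 7 (Lep at 2.47 and Fabp4 at 0.27), beside 1737 of all 11345 genes. The diet effect in KO minus that in WT was 1.71 ± 0.51 for Retn (limma adjusted p = 0.277), 1.64 ± 0.78 for Adipoq (adjusted p = 0.488), 1.32 ± 1.69 for Lep (adjusted p = 0.833) and 0.09 ± 0.20 for Fabp4 (adjusted p = 0.917). Limma called 0 of 7 there, beside 0.141% of all genes, so a diet response that depends on genotype was not shown for any member. Retn alone had an unadjusted p under 0.05, beside 1178 of all 11345 genes. With 1 mouse left out, the Lep value lay between −0.03 (without KO ND mouse 2) and 2.61 (without WT ND mouse 1), and that of Adipoq fell to 0.93 without KO ND mouse 1.

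**Figure D2:**
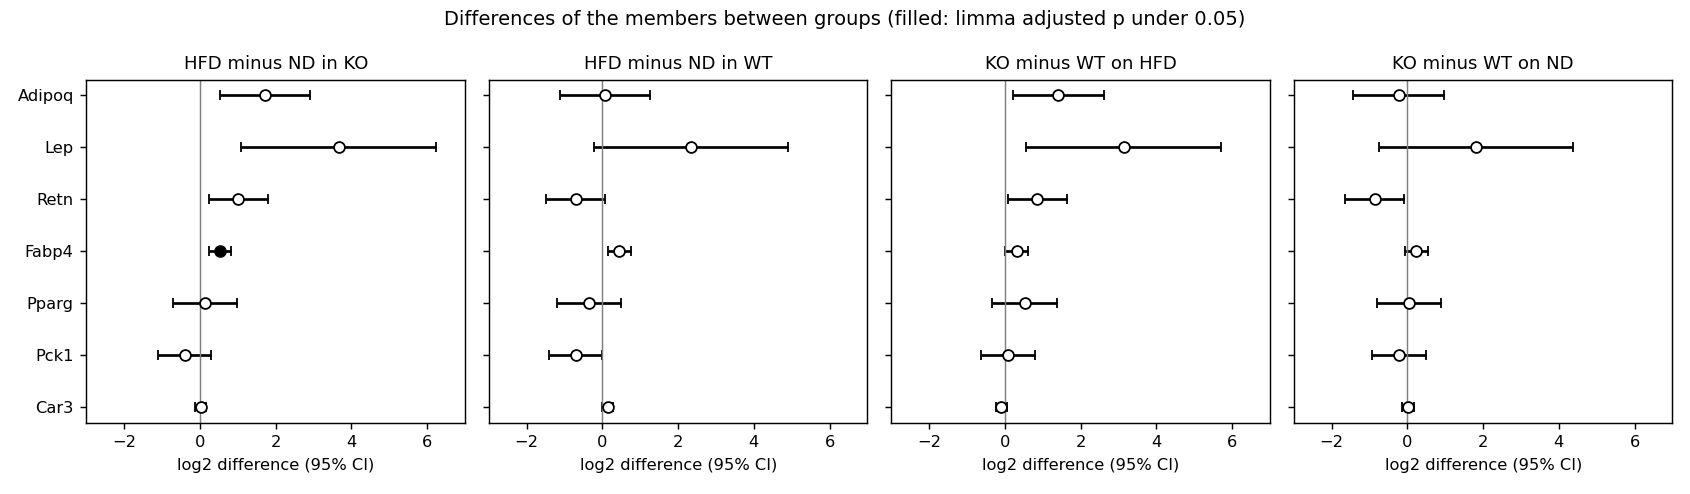
The log2 difference of each member is shown for the diet in each genotype and for the genotype on each diet, with 95% intervals from limma and filled points for an adjusted p under 0.05. Fabp4 in KO (0.53) is the one filled point, and the intervals for Lep are the widest, reaching from 1.09 to 6.23 in KO.

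Mice of the same group differed from each other in several members at once. WT HFD mouse 2 was the highest of its group in 6 of 7 members, all but Car3. KO ND mouse 1 and WT ND mouse 3 were each the lowest of their group in the same 5 members, Adipoq, Retn, Fabp4, Pparg and Pck1. The spread of Adipoq over all mice was 3.31 log2 units, from 8.95 in KO ND mouse 1 to 12.26 in KO HFD mouse 1. The group means of Adipoq ran, high to low, 12.07 ± 0.32 in KO HFD, 10.66 ± 0.92 in WT HFD, 10.59 ± 0.74 in WT ND and 10.36 ± 1.25 in KO ND (SD, n = 3 each), and the last 3 lie within 1 SD of each other. For Lep the order was KO HFD (8.04 ± 0.51), WT HFD (4.90 ± 1.43), KO ND (4.38 ± 2.40) and WT ND (2.57 ± 2.42), where again the last 3 overlap. For Fabp4 it was KO HFD (13.44 ± 0.07), WT HFD (13.12 ± 0.34), KO ND (12.91 ± 0.23) and WT ND (12.68 ± 0.02), and each neighbour overlaps the next. In whole-tissue RNA more fat cells and more transcript per fat cell cannot be told apart.

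Retn and Fabp4, each read from its brightest probe set, tracked Adipoq over the 12 mice. Retn had a Pearson r of 0.80 (permutation p = 0.00214, adjusted over 6 relations 0.00942) and a Spearman rho of 0.75 (permutation p = 0.00709, adjusted 0.0213). With the group means removed, its r was 0.88 (exact permutation within groups, p = 0.00540, adjusted 0.0324). Without the 2 mice farthest from the median of Adipoq, KO ND mouse 1 and WT ND mouse 3, it was 0.77. Fabp4 had r = 0.78 (permutation p = 0.00314, adjusted 0.00942), rho = 0.76 (permutation p = 0.00504, adjusted 0.0213), and r = 0.70 without those mice. With the group means removed Fabp4 had r = 0.77, which missed the threshold (exact permutation p = 0.0802, adjusted 0.120). No correlation with Adipoq was computed for the other Fabp4 probe sets, so the relation is shown for the brightest alone.

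Over all 12 mice the remaining members had lower r with Adipoq than Retn and Fabp4. Pparg had r = 0.61 (permutation p = 0.0359, adjusted 0.0718) and rho = 0.64 (permutation p = 0.0276, adjusted 0.0552), with r = 0.58 without the farthest mice and 0.71 within groups (exact permutation p = 0.0386, adjusted 0.0772). Pck1 had r = 0.27 over all mice (permutation p = 0.388, adjusted 0.466), rho = 0.27 (permutation p = 0.403, adjusted 0.484), and 0.12 without the farthest mice. Once the group means were removed its r was 0.82 (exact permutation p = 0.0309), a relation that missed the threshold after adjustment (0.0772). Lep had r = 0.45 over all mice (permutation p = 0.141, adjusted 0.211), rho = 0.62 (permutation p = 0.0385, adjusted 0.0578), r = 0.69 without the farthest mice, and −0.06 within groups (exact permutation p = 0.931, adjusted 0.931). Car3 had r = −0.20 (permutation p = 0.527, adjusted 0.527), rho = −0.15 (permutation p = 0.636, adjusted 0.636), −0.36 without the farthest mice and −0.34 within groups (exact permutation p = 0.453, adjusted 0.544). That is its brightest probe set, which spans a narrow range, and the other 3 gave r of −0.67 (1460256_at), 0.58 (1430584_s_at) and 0.54 (1453588_at) as descriptions over the same 12 mice.

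**Figure D3:**
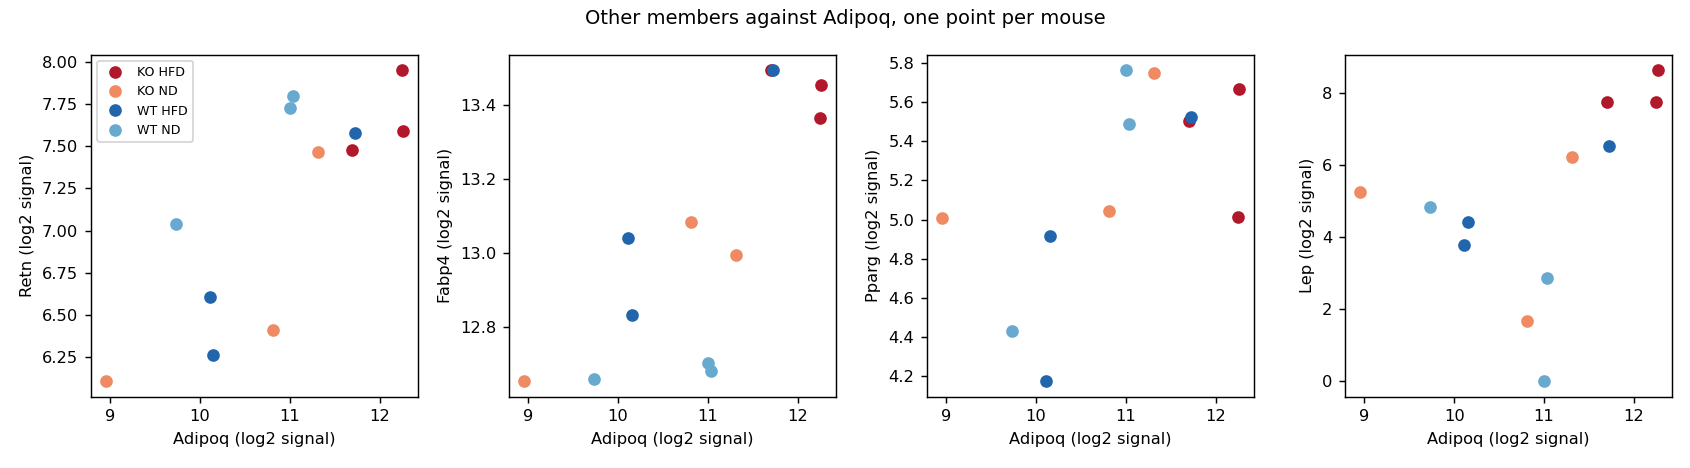
Retn, Fabp4, Pparg and Lep are plotted against Adipoq, all as log2 signals of the brightest probe set, with 1 point per mouse coloured by group. Retn and Fabp4 climb with Adipoq (r = 0.80 and 0.78, n = 12), while the 2 lowest Lep values stand near the middle of the Adipoq range.

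Genes closest to Adipoq across the mice were found by correlation after removing the group means, as a description over 12 mice and 11344 other genes. Cidec, a lipid droplet protein of white fat cells, was the closest (r = 0.98), and Adig, adipogenin, was the fourth (r = 0.93). The others among the first 8 were Ubd (0.94), Rab11a (0.93), Inf2 (0.93), Rabif (0.93), Psme1 (0.92) and Erg (0.92). Ubd had a mean of 7.88 in KO HFD. In the other groups its means lay under the signal filter, at 2.82 in KO ND, 3.28 in WT HFD and 2.86 in WT ND. The likeness of Ubd to Adipoq is therefore poorly measured. Cidec read 8.87, 8.71 and 8.17 in KO HFD, 5.64, 7.25 and 7.88 in KO ND, 5.96, 7.93 and 6.10 in WT HFD and 7.71, 8.15 and 6.19 in WT ND, so it put the mice in nearly the order that Adipoq did. Among the members, Retn ranked 25, Pck1 70, Fabp4 167 and Pparg 340 of the 11344. The 95th percentile of all genes was r = 0.64, and 8 of 20 other adipocyte genes, 4 of 6 other members, 1 of 9 macrophage genes, 1 of 8 endothelial genes and 0 of 9 slow fibre genes were above it. So were 3 of 14 other secreted products and 1 of 8 fibro-adipogenic progenitor genes. Median r was 0.55 for adipocyte, 0.44 for macrophage, 0.41 for endothelial, 0.34 for progenitor and −0.14 for slow fibre genes, against 0.02 over all genes. Likeness to Adipoq was therefore not particular to fat cell genes.

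Other adipocyte genes were read from a list of 22, of which 20 were tested and Plin1 and Adrb3 had no probe set under their name. Like the members, this list and those below were chosen with earlier results of these data known. Their counts and medians beside those of all genes are therefore descriptions only. In KO muscle 5 of 20 rose with the high fat diet, 0 fell and 15 did not pass, beside 4.54% of all genes, with a median difference of 0.92 against 0.05 over all genes. Those that rose were Tmem45b (2.25 ± 0.59, limma adjusted p = 0.0473), Mest, an imprinted gene that marks fat expansion (2.23 ± 0.38, adjusted p = 0.00635), Sncg, gamma-synuclein (2.15 ± 0.46, adjusted p = 0.0216), Agpat2, an enzyme of triglyceride synthesis (1.52 ± 0.36, adjusted p = 0.0317), and Slc7a10, an amino acid transporter of white fat (1.40 ± 0.32, adjusted p = 0.0272). With the control ratio in the fit Mest kept its call (adjusted p = 0.0254) and the other 4 lost theirs, with adjusted p from 0.0642 for Sncg to 0.120 for Tmem45b. In WT 1 of 20 rose and 0 fell, beside 6.06% of all genes, with a median of 0.07. That gene was Aqp7, the glycerol channel of fat cells (1.26 ± 0.28, adjusted p = 0.0211, or 0.181 with the control ratio). Of the brighter genes that were not called in either genotype, Scd1, a fatty acid desaturase, differed by 0.95 in KO and 0.20 in WT (adjusted p = 0.215 and 0.825). Pnpla2, the lipase that starts triglyceride breakdown, differed by −0.27 in KO and −0.28 in WT (adjusted p = 0.176 and 0.135). Averaged over genotypes 7 of 20 rose with the high fat diet and 1 fell, beside 13.7% of all genes. The 1 that fell was Pnpla2 (−0.28 ± 0.08, limma adjusted p = 0.0291). These averaged values were fitted without the control ratio.

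Between genotypes on the high fat diet 1 of 20 of these genes was higher in KO and 0 lower, Sncg by 2.34 ± 0.46 (SE, n = 3 per group, limma adjusted p = 0.0358), beside 0.732% of all genes and with a list median of 1.08 against 0.03 over all genes. On normal diet 0 of 20 passed either way, beside 0.414% of all genes. Averaged over diets 3 of 20 were higher in KO and 0 lower, beside 1.61% of all genes. They were Tmem45b (2.21 ± 0.42, limma adjusted p = 0.0193), Sncg (1.72 ± 0.32, adjusted p = 0.0193) and Nnat (1.52 ± 0.33, adjusted p = 0.0358). On normal diet alone these differed by 1.78, 1.09 and 1.08. The diet effect differed between genotypes for 0 of 20, beside 0.141%. The difference in the response itself was therefore not shown for these genes. Mrap, a cofactor of the melanocortin receptor, was named after its values were seen. It differed with the diet by 2.57 ± 0.70 in KO and −1.56 ± 0.70 in WT (limma adjusted p = 0.0546 and 0.204). Its diet effect in KO minus that in WT was 4.13 ± 0.99, which did not pass (adjusted p = 0.176). In KO ND mouse 1 Mrap read 2.12, under the filter, against 5.41 and 5.25 in the other KO ND mice. The size of its difference in KO is therefore poorly measured.

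**Figure D4:**
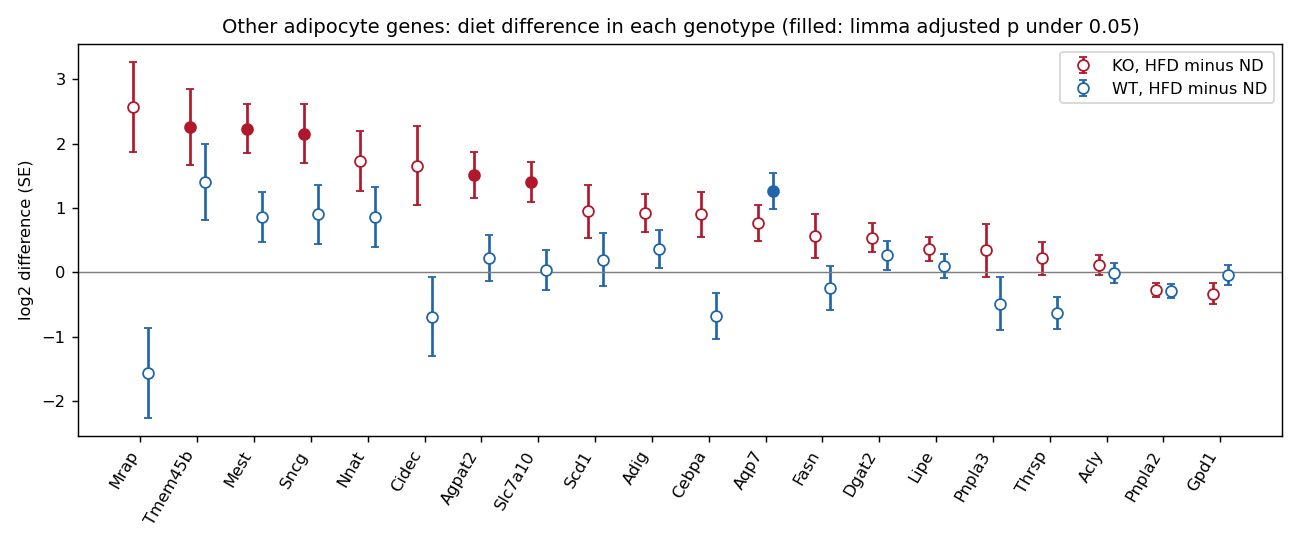
The diet difference with its SE is shown for each of the 20 other adipocyte genes in KO and in WT, ordered by the value in KO, with filled points for a limma adjusted p under 0.05. There are 5 filled points in KO, from Slc7a10 at 1.40 to Tmem45b at 2.25, and 1 in WT, Aqp7 at 1.26.

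Other secreted products of fat tissue held calls for the diet in both genotypes. Of 20 listed, 18 had a named probe set and 14 were tested. The list median was 0.44 for the diet in KO and 0.67 for KO against WT on the high fat diet, against 0.05 and 0.03 over all genes, with 12 of 14 differences positive in each. It was −0.15 for the diet in WT and −0.23 for KO against WT on normal diet, against 0.04 and 0.02 over all genes. In each of these 9 of 14 differences were negative. In KO 3 rose with the diet and 0 fell, beside 4.54% of all genes, namely Hp, haptoglobin (3.45 ± 0.55, limma adjusted p = 0.00449), Saa3, serum amyloid A3 (3.31 ± 0.51, adjusted p = 0.00398), and Sfrp5, a secreted inhibitor of Wnt signalling (1.39 ± 0.23, adjusted p = 0.00493). Saa3 was under the filter of 3.78 in 2 of the 3 KO ND mice (3.57, 1.98 and 3.90), so the size of its difference is poorly measured. In WT 0 rose and 1 fell, beside 6.06% of all genes. That gene was Lcn2, lipocalin 2, which fell by 3.57 (SE 0.73, adjusted p = 0.0141), with 2 of 3 WT HFD mice under the filter (4.32, 2.74 and 2.66) and the same limit on its size. With the control ratio in the fit the 3 calls in KO held and that of Lcn2 did not (adjusted p = 0.161). On the high fat diet 2 were higher in KO, beside 0.732% of all genes, Hp (4.57 ± 0.55, adjusted p = 0.00311) and Rbp4, the retinol carrier of plasma (1.48 ± 0.30, adjusted p = 0.0406). Hp was also the 1 of 14 whose diet effect differed between genotypes, by 4.71 ± 0.77 (KO minus WT, adjusted p = 0.0362), beside 0.141% of all genes. Retnla, a relative of resistin made by macrophages and fat, did not pass (0.39 in KO and −0.40 in WT, adjusted p = 0.592 and 0.544).

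Of 9 receptors and binding partners of these hormones 8 were tested, and 1 passed with the diet in KO, beside 4.54% of all genes, C3ar1, the complement C3a receptor (1.63 ± 0.30, limma adjusted p = 0.0103), while 0 passed in WT, beside 6.06%. The adiponectin receptor Adipor1 differed by −0.05 in KO and 0.18 in WT (adjusted p = 0.763 and 0.211), and Adipor2 by −0.02 and −0.14 (adjusted p = 0.937 and 0.410).

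Adipogenic transcription factors gave calls in both directions. Of 15 tested, 1 rose and 2 fell with the diet in KO, beside 4.54% of all genes, and 1 rose and 4 fell in WT, beside 6.06%. Srebf1, which drives lipid synthesis, rose by 0.68 ± 0.16 in KO (SE, n = 3 per group, limma adjusted p = 0.0344) and 0.76 ± 0.16 in WT (adjusted p = 0.0179). Cebpd, which acts early in fat cell differentiation, fell by 2.72 in KO (SE 0.44, adjusted p = 0.00488) and fell by 2.71 in WT (SE 0.44, adjusted p = 0.00475). Cebpb, its partner, fell by 0.91 in KO (adjusted p = 0.000880) and fell by 1.07 in WT (adjusted p = 8.30e-05). Klf15 fell in WT by 1.27 (adjusted p = 0.0142) and Klf5 by 1.26 (adjusted p = 0.0409), and these were the 2 calls lost with the control ratio in the fit (adjusted p = 0.116 and 0.220). Brown fat markers Ucp1, Elovl3 and Zic1 were under the filter. Of the 5 brown fat genes tested, 0 passed in KO, beside 4.54% of all genes, and 2 rose in WT, beside 6.06%. Those 2 were Cidea (1.34 ± 0.33, adjusted p = 0.0300) and Cox8b, a subunit that muscle also makes (0.29 ± 0.07, adjusted p = 0.0258). Neither passed with the control ratio in the fit, where the differences were 1.46 and 0.31 (adjusted p = 0.132 and 0.129).

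Markers of other cells moved with some of these groups. The summed linear signal of the 20 named adipocyte genes was 11629 to 12886 in KO HFD, 5167 to 10154 in KO ND, 5202 to 10395 in WT HFD and 5781 to 6538 in WT ND. Such a sum mostly follows its brightest genes. Here that is Scd1, with mean log2 signals of 12.74 in KO HFD, 11.79 in KO ND, 11.57 in WT HFD and 11.37 in WT ND. That of 11 macrophage genes was 4085 to 7592 in KO HFD, 2366 to 3105 in KO ND, 1882 to 3947 in WT HFD and 3294 to 3747 in WT ND, with Itgax and Trem2 under the filter. Of the 9 macrophage genes tested, 4 rose with the diet in KO and 0 fell, beside 4.54% of all genes, led by Lgals3, galectin-3 (2.45 ± 0.31, SE, n = 3 per group, limma adjusted p = 0.00197), Gpnmb (1.52 ± 0.22, adjusted p = 0.00330) and Adgre1, F4/80 (1.11 ± 0.14, adjusted p = 0.00197). The fourth, Lyz2, lost its call with the control ratio in the fit (adjusted p = 0.0856). In WT 0 of 9 passed, beside 6.06%. On the high fat diet 3 of 9 were higher in KO than in WT, beside 0.732%, Lgals3 (2.28 ± 0.31, adjusted p = 0.00539), Cd68, a lysosomal protein of macrophages (2.10 ± 0.39, adjusted p = 0.0311), and Gpnmb (1.39 ± 0.22, adjusted p = 0.0167). The diet effect differed between genotypes for 2 of 9, Lgals3 (3.06 ± 0.44) and Gpnmb (2.15 ± 0.31), both at a limma adjusted p of 0.0179, beside 0.141% of all genes. The sum over 8 endothelial genes overlapped between all groups, at 1061 to 1436 in KO HFD, 1159 to 1367 in KO ND, 1130 to 1355 in WT HFD and 953 to 1349 in WT ND. The sum over 9 named fibro-adipogenic progenitor genes was 6102 to 7146 in KO HFD, 6185 to 7273 in KO ND, 5347 to 7140 in WT HFD and 6953 to 7169 in WT ND. Of these genes 0 of 8 tested were called in any diet or genotype comparison, beside 0.414% to 13.7% of all genes. Of the granulocyte and skin lists, 3 genes each were tested and 0 passed in either genotype with the diet, beside 4.54% of all genes in KO and 6.06% in WT. The part of macrophages or endothelium in the Fabp4 and Retn values was not tested.

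Car3 gave different answers from its 4 probe sets. The brightest read 13.56 to 13.85 in every mouse, and the next, at a mean of 12.41, differed by −0.36 ± 0.18 in KO and −0.12 ± 0.18 in WT (SE, n = 3 per group, limma adjusted p = 0.315 and 0.776). The 2 dimmer ones, which the annotation ties to the same expressed sequence tag, spread over 5.83 and 5.93 log2 units. Probe set 1430584_s_at read 9.12, 11.05 and 10.87 in KO HFD, 7.43, 9.21 and 9.16 in KO ND, 8.98, 11.34 and 9.17 in WT HFD and 8.20, 5.51 and 6.75 in WT ND. The WT mice on the high fat diet were all above the WT mice on normal diet, and the KO groups overlapped.

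With every probe set fitted rather than 1 per gene, 1430584_s_at rose with the diet in WT by 3.01 ± 0.75 (SE, n = 3 per group, limma adjusted p = 0.0358) and averaged over genotypes by 2.38 ± 0.53 (adjusted p = 0.0122). With the control ratio in that fit the call in WT was lost (3.802, adjusted p = 0.0935) and the averaged one held (2.96, adjusted p = 0.0488). In KO its difference of 1.75 ± 0.75 was not called (adjusted p = 0.236). Probe set 1453588_at rose by 2.19 ± 0.54 on average (adjusted p = 0.0197) and was not called in KO (2.03, adjusted p = 0.174) or in WT (2.36, adjusted p = 0.0936). In those fits 3.37% of all probe sets were called in KO, 5.21% in WT and 11.2% on average over genotypes. Slow fibre genes, which mark the other main source of Car3, had a summed signal of 23440 to 30398 in KO HFD, 23833 to 26396 in KO ND, 22547 to 25567 in WT HFD and 15968 to 20107 in WT ND. The part of fibre type in the Car3 values was not tested.

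**Figure D5:**
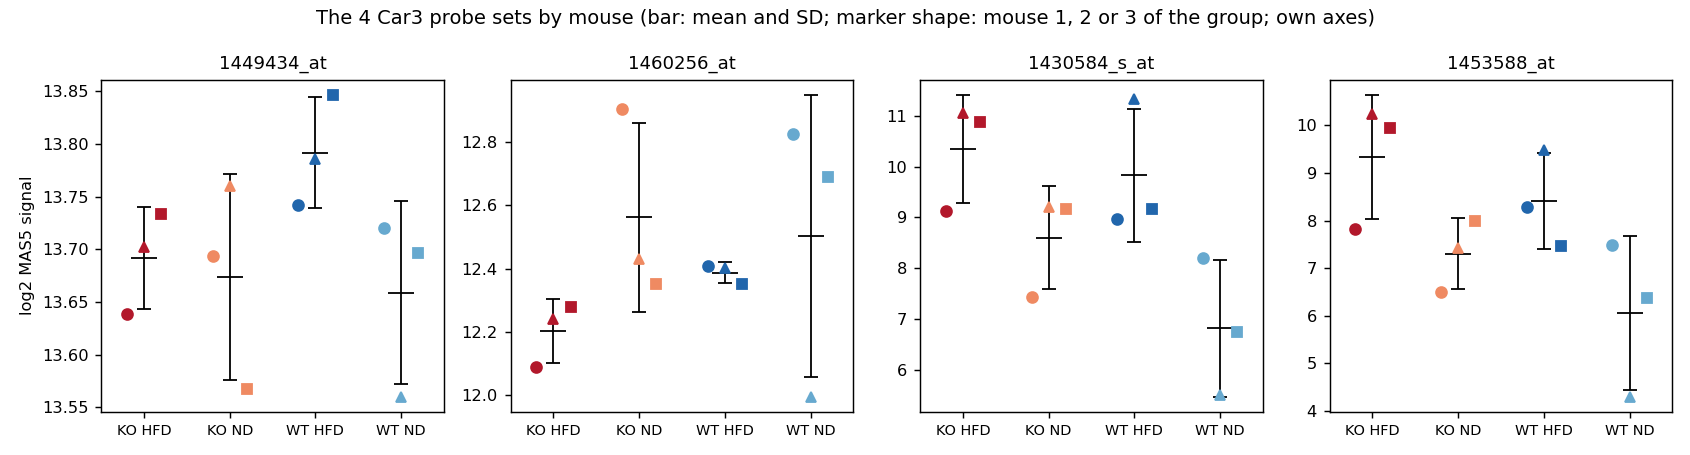
Each panel plots 1 of the 4 Car3 probe sets by mouse and group, as log2 signal with mean and SD (n = 3), on its own axis. The brightest stays within 13.56 to 13.85, while 1430584_s_at in WT lies at 8.98 to 11.34 on the high fat diet, above 5.51 to 8.20 on normal diet.

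Fabp4 also has 4 probe sets, and its call rests on the brightest. The other 3 differed with the diet averaged over genotypes by 0.14, 0.29 and 0.19 (limma adjusted p = 0.695, 0.378 and 0.498). In KO they differed by 0.47, 0.02 and 0.34 (adjusted p = 0.380, 0.982 and 0.471). The other 2 probe sets of Pck1 averaged 3.68 and 0.57, under the filter, and Adipoq, Lep, Retn and Pparg have 1 probe set each.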

How the data were processed

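The authors deposited log2 signals from MAS5, per the submitters' processing notes, which give no version. The arrays were 1-colour with a biotin label, per the labels, and the sources used here name no genome build. After conversion to linear values, the mean of those between the 2nd and the 98th percentile was 100 on all 12 arrays. Values were used as deposited.

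After 64 control probe sets were removed, 45037 were kept, of which 34945 carried 1 gene symbol in the platform annotation. Probe sets with a mean log2 signal above the median of 3.78 passed, and the brightest per symbol stood for its gene (11345 genes). A model of 4 group means over all 12 arrays was fitted in limma 3.58.1 (R 4.3.3) with an intensity trend, 7 contrasts, and Benjamini-Hochberg adjustment over all genes of a contrast at 0.05. The fit was tested on simulated data. Correlations used 100000 permutations, or all 1296 orders within groups. Python 3.11.15, pandas 2.3.3, numpy 2.4.6, scipy 1.17.1 and matplotlib 3.10.9 made tables and figures.

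Members and gene lists were chosen with earlier results of these data known. Named genes are the members, the 8 genes most like Adipoq, up to 3 called genes per list and contrast, and up to 2 bright others per list. Agpat2, Slc7a10 and Mrap were named after their values were seen. Results for 14 lists were computed. Cfd left 6 of the 7 planned correlations. Wisp2 was read under its newer symbol Ccn5. Mice are separate animals, 3 a group, and the number of arrays limits precision. As alternatives, each mouse was left out, fits were limited to the compared groups or took the control ratio as a covariate, arrays were weighted, the intensity trend was dropped, every probe set was kept, and values were median-centred, quantile-normalized, offset at either of 2 levels or filtered in 2 other ways. That covariate was applied to the gene lists and the Car3 probe sets after seeing the data.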

Additional observations from a re-analysis of the deposited data

How the results depend on the processing

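No paired analysis was possible because the mouse numbers of the groups do not overlap. The count of members past the threshold in KO with the diet, 1 as reported, was 0 without the signal filter, with quantile normalization, with median centring, with all probe sets, without the intensity trend and with the control ratio as a covariate, and 2 with the offset at the 50th percentile. Leaving out 1 mouse at a time gave 0 to 1. Averaged over genotypes the diet count, 2 as reported, was 1 with the filter at the 75th percentile, where 5 members were tested, 1 without the intensity trend and 0 with the covariate, and 1 to 3 with 1 mouse left out, the 3 without KO ND mouse 1, where Pck1 fell as well. The counts of 0 became 1 with the offset at the 50th percentile for KO against WT on the high fat diet and for KO against WT averaged over diets, each through Lep. With 1 mouse left out, the counts for the diet in WT, for KO against WT on the high fat diet and for KO against WT averaged over diets were 0 to 1, each through Fabp4. Adipoq with Lep moved to r = 0.69 without the farthest mice, and Adipoq with Fabp4 to r = 0.77 within groups, past the threshold no longer. No called difference changed sign under any of these alternatives. Median centring shifted the median of all genes in KO by −0.12, and Fabp4 there was 0.41 (adjusted p = 0.205). The causes of these changes were not tested.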

Other observations

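Kap, the kidney androgen-regulated protein, read 9.72 in KO ND mouse 2 and 6.24 in KO ND mouse 1, against 4.04 to 5.38 in the other 10 mice, while the kidney markers Umod, Slc34a1 and Aqp2 were under the filter. Adipoq in KO ND mouse 2 was 10.81, the eighth of 12.

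Slow fibre genes separated WT mice on normal diet from the rest, with summed signals of 15968 to 20107 in WT ND against at least 22547 in every other mouse. Of 9 slow fibre genes tested, 1 rose with the diet in KO, beside 4.54% of all genes, and 3 rose in WT, beside 6.06%. In KO it was Casq2, the slow muscle calsequestrin (1.08, SE 0.16, n = 3 per group, limma adjusted p = 0.00398). In WT they were Myl3, the slow myosin light chain (0.53, adjusted p = 0.0358), Myl2 (0.42, adjusted p = 0.0493) and Tnnc1 (0.39, adjusted p = 0.0364). With the control ratio in the fit Casq2 kept its call (adjusted p = 0.0165). Those 3 lost theirs, at differences of 0.58, 0.25 and 0.32 (adjusted p = 0.153, 0.416 and 0.249). On normal diet 1 of 9 was higher in KO than in WT, beside 0.414%, Myl3 by 0.73 (SE 0.14, adjusted p = 0.0370). On the high fat diet 1 of 9 was also higher in KO, beside 0.732%. Averaged over diets 4 of 9 were higher in KO and 0 lower, beside 1.61%.

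Kdr, a VEGF receptor of endothelium, rose with the diet in WT by 1.24 (SE 0.30, n = 3 per group, limma adjusted p = 0.0308), and Flt1, another VEGF receptor, fell by 0.78 in KO (SE 0.18, adjusted p = 0.0298). These were the 2 of 8 endothelial genes called for the diet in either genotype, 1 in each, beside 4.54% of all genes in KO and 6.06% in WT. Neither passed with the control ratio as a covariate (adjusted p = 0.361 for Kdr and 0.0530 for Flt1).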
